A study of Mus musculus with 18 samples.

Results

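Granins are acidic proteins packed into the dense-core vesicles of endocrine cells and neurons, and prohormone convertases cut peptide precursors inside the same vesicles. Medullary thymic epithelial cells (mTECs) transcribe many genes of peripheral tissues, hormones included, and show their products to developing T cells. Aire, a nuclear regulator, and Fezf2, a zinc finger transcription factor, are each needed for parts of this transcription in mTECs, and Chd4 is a remodelling ATPase of the NuRD complex. The genes described here are 9 of the 49585 in the deposited count tables for Aire and Fezf2, and of the 21969 in the table for Chd4. They were taken by symbol: the granins Chga, Chgb, Scg2 and Scg3, the convertase chaperone Scg5 (also called 7B2), Resp18, the convertases Pcsk1 and Pcsk2, and Pcsk1n, which encodes the inhibitor proSAAS. The rule names the genes and uses no measured value, though it was written with earlier results of these data known.

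RNA-seq of mouse mTECs gave 18 libraries in 6 groups of 3. The groups were C57BL/6 mice labelled Aire KO with a WT group of their own, C57BL/6 mice labelled Fezf2 KO with another WT group, and C57BL/6x129P2 mice labelled Chd4 cKO (Chd4 flox/flox with Foxn1-Cre, a recombinase of thymic epithelium) with a control group that carried Chd4 flox/flox alone. The control groups are called WT for Aire, WT for Fezf2 and Chd4 control below, and the 3 libraries of a group are called A, B and C. The labels give neither age nor sex, nor whether animals were pooled or a triplicate came from separate mice, so the p-values rest on a spread among libraries that may be technical. The column names call the Fezf2 libraries conditional knockouts, which the sample labels do not.

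Depth lay between 3571570 and 17220157 exon reads per library, with Chd4 cKO B the deepest. Exon reads of Fezf2 fell in libraries labelled Fezf2 KO (log2 fold change -5.59, SE 0.41, edgeR adjusted p = 1.69e-04) and those of Chd4 fell in Chd4 cKO libraries (-1.14, SE 0.13, edgeR adjusted p = 1.59e-04). Exon reads of Aire were higher in libraries labelled Aire KO, with 3724 to 4074 CPM (counts scaled to an effective library of 1000000 exon reads) against 1799 to 2285 CPM in their WT (log2 fold change 0.97, SE 0.11, edgeR adjusted p = 9.77e-05). No source used here names the exons deleted, so the Aire count does not check that label, and each Aire KO result below rests on the label. Fezf2 was also higher in Aire KO (871.0 against 621.8 CPM, log2 fold change 0.48, SE 0.15, edgeR adjusted p = 0.0413). With upper-quartile normalization only 1 of Aire, Fezf2 and Chd4 was called there. In Chd4 cKO 2 of these 3 genes were called lower, Chd4 among them, and 1 higher, so both Aire and Fezf2 were called there, in opposite directions. The part of these changes in the results below was not tested. The mTEC markers H2-Aa and Epcam were abundant in all groups: their list of 8 genes summed to between 9116 and 15910 CPM in every library, while 9 thymocyte markers summed to between 55.1 and 620.5 CPM. In the Aire comparison H2-Aa made up most of the mTEC sum, averaging 12370 CPM in Aire KO and 9708 CPM in the WT. Fibroblast, myeloid, tuft-like and neuroendocrine-like markers were present too; whether they came from other cells or from mTECs was not tested. In such bulk RNA fewer cells of a type and less RNA per cell cannot be told apart.

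The granin promoters are shown first because secretogranin and convertase genes are textbook targets of factors that bind the cAMP response element (CRE). In the 250 bases before the RefSeq start (build GRCm38.p6; all 9 genes matched), the palindrome TGACGTCA was found in Chgb, Scg2 and Pcsk1, that is in 3 of 9 genes, against 1.77% of the 27025 genes with a promoter in the table. The looser form TGACGNNA, searched on both strands and including the palindrome, was found in 5 of 9 genes, Chga and Scg3 being the others, against 6.50% of all genes. Each stretch below runs 5′ to 3′ on the coding strand with the match in capitals and 10 bases on either side. GENCODE places the starts of Chgb, Scg2 and Pcsk1 farther upstream than RefSeq does, and that of Chga farther downstream. The distances therefore hold for the RefSeq start only. By the GENCODE spans the matches of Chgb and Scg2 lie inside the gene, and that of Pcsk1 still lies before it. A match describes the letters and does not show a site in use. The CRE was looked for because such genes are textbook targets, so the shares describe the members and are not a test.
Scg2: gctgagccggTGACGTCAgcgtggaatg
Chgb: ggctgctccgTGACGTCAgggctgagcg
Pcsk1: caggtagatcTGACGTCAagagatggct
Chga: ggcggtcctaTGACGTAAtttcctgggt
Scg3: gctgggtcgcTGACGCCAtcctcacgcc
These lie on chr1:79440077-79440104 (minus strand), chr2:132781560-132781587 (plus), chr13:75089769-75089796 (plus), chr12:102554887-102554914 (plus) and chr9:75684069-75684096 (minus). The match begins 68 bases before the start of Scg2, 72 before Chgb, 78 before Pcsk1, 44 before Chga and 30 before Scg3. Resp18, the member with the largest Fezf2 KO effect, had no TGACGNNA in the window. The 120 bases before its start, at chr1:75278416-75278535 on the minus strand, are printed with a CCAAT box, here on the other strand as ATTGG, in capitals. CCAAT, searched on both strands, was found in 3 of 9 genes (Scg3, Resp18 and Pcsk2), against 37.5% of all genes.
Resp18: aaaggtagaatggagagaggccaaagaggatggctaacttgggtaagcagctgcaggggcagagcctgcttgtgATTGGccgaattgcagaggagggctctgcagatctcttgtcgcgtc

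Levels of the 9 genes spanned a wide range in mTECs. Compared per kilobase of exon, which corrects for gene length, Resp18 stood highest in the Chd4 control at 254.4 ± 41.2 CPM per kb (SD, n = 3), above 98.7% of the 19731 genes detected there. It also led in the WT for Fezf2 at 159.3 ± 69.9 and in the WT for Aire at 109.6 ± 31.2 CPM per kb. Resp18 encodes a protein of the endoplasmic reticulum and secretory granules of endocrine cells. Chga and Scg5 followed and lay close together: Chga had 42.4 ± 1.5, 61.7 ± 10.4 and 47.7 ± 6.03 CPM per kb in WT for Aire, WT for Fezf2 and Chd4 control, and Scg5 had 34.3 ± 4.76, 42.9 ± 11.3 and 41.3 ± 11.5. Their ranges overlapped in WT for Fezf2 and Chd4 control and not in WT for Aire. Chromogranin A, the product of Chga, is the classic marker of neuroendocrine cells.

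Below these, Scg2 stood at 8.23 ± 1.35, 12.1 ± 1.05 and 8.03 ± 3.0 CPM per kb in the same control groups. Chgb stood at 6.03 ± 3.27, 5.57 ± 1.25 and 6.22 ± 2.40, so Scg2 and Chgb overlapped in the WT for Aire and the Chd4 control but not in the WT for Fezf2. The convertases were low, with Pcsk1 at 2.11 ± 0.63, 1.35 ± 0.89 and 3.03 ± 0.72 and Pcsk2 at 0.68 ± 0.19, 1.01 ± 0.55 and 1.66 ± 0.54. Scg3 was at 0.42 ± 0.35, 0.66 ± 0.39 and 0.92 ± 0.82 CPM per kb, overlapping Pcsk2 in each control group though lower on average. Pcsk1n had 0 reads in all 3 WT for Aire libraries, 2 in the WT for Fezf2 and 8 in the Chd4 control; 3 reads, the floor taken for a count of 0, correspond to between 0.175 and 0.841 CPM per library. Exon lengths of Scg3, Scg5, Resp18, Pcsk1 and Pcsk2 differ between the Chd4 table and the other tables, so levels per kilobase of these genes were not tested between them.

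**Figure D1:**
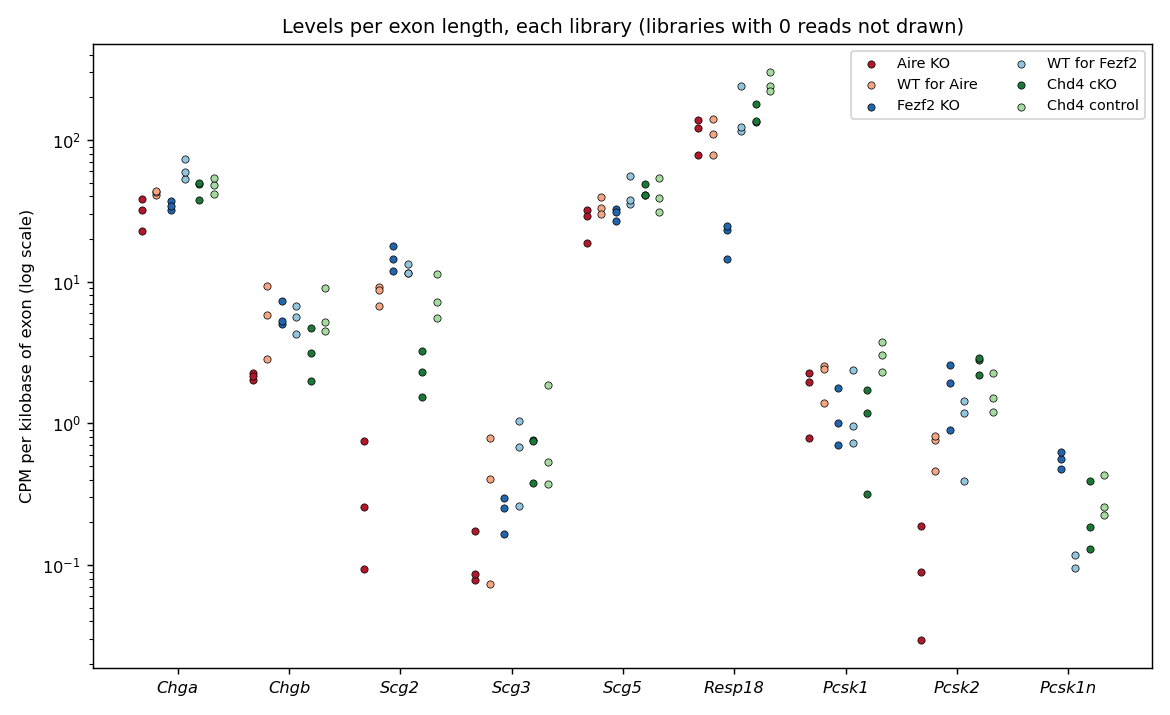
Level per kilobase of exon (CPM per kb, log scale) of each gene in each library, coloured by group, with each knockout drawn left of its control and libraries without reads left out. Resp18 is the highest gene in the control groups, Chga and Scg5 come next, and Scg3 and Pcsk1n are lowest; Resp18 drops among the other genes in Fezf2 KO.

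Between the 2 control groups of C57BL/6 mice no member passed the test. Setting WT for Fezf2 over WT for Aire, edgeR called 0 members (7 tested), with 1 at an unadjusted p under 0.05, Chga (log2 fold change 0.49, SE 0.20, edgeR adjusted p = 0.359), and DESeq2 also called 0. Over all 15656 genes tested, 11.9% had an unadjusted p under 0.05 and 0.128% (20 genes) were called. Without WT for Fezf2 B, 636 genes were called. Chga and Scg2 were higher in every WT for Fezf2 library than in any WT for Aire library. The share of all genes that lay so was not counted. These CPM were scaled within each knockout comparison and not over the WT groups together.

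Each knockout was then set against its own control. In every such comparison 7 of the 9 genes passed the filter on low counts, and Scg3 and Pcsk1n did not. The granins and convertases did not move as a block: Scg2, Pcsk2 and Chgb fell in Aire KO, Resp18 and Chga fell in Fezf2 KO, Scg2, Resp18 and Pcsk1 fell in Chd4 cKO, and edgeR called none higher. At an unadjusted p under 0.05, 0 members were higher in Aire KO, 0 in Fezf2 KO and 1 in Chd4 cKO, and DESeq2 called none higher in any of them. In either direction 4, 2 and 5 of the 7 had an unadjusted p under 0.05, beside 27.7%, 19.3% and 40.3% of all genes tested. By adjusted p, 3 of the 7 members tested were lower in Aire KO, where 9.37% of the 14949 genes tested were lower. In Fezf2 KO 2 of the 7 were lower, where 2.40% of 15695 genes were, and in Chd4 cKO 3 of the 7, where 14.3% of 15182 were. By the simpler measure of all 3 knockout libraries lying below all 3 control libraries, the counts were 4 of 9 genes in Aire KO (16.9% of genes tested), 3 of 9 in Fezf2 KO (13.3%) and 3 of 9 in Chd4 cKO (22.0%). Each gene so counted was among the 7 tested. The 376 genes lower in Fezf2 KO became 67 without Fezf2 KO B and 981 without WT for Fezf2 B, so that background moves with single libraries.

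**Figure D2:**
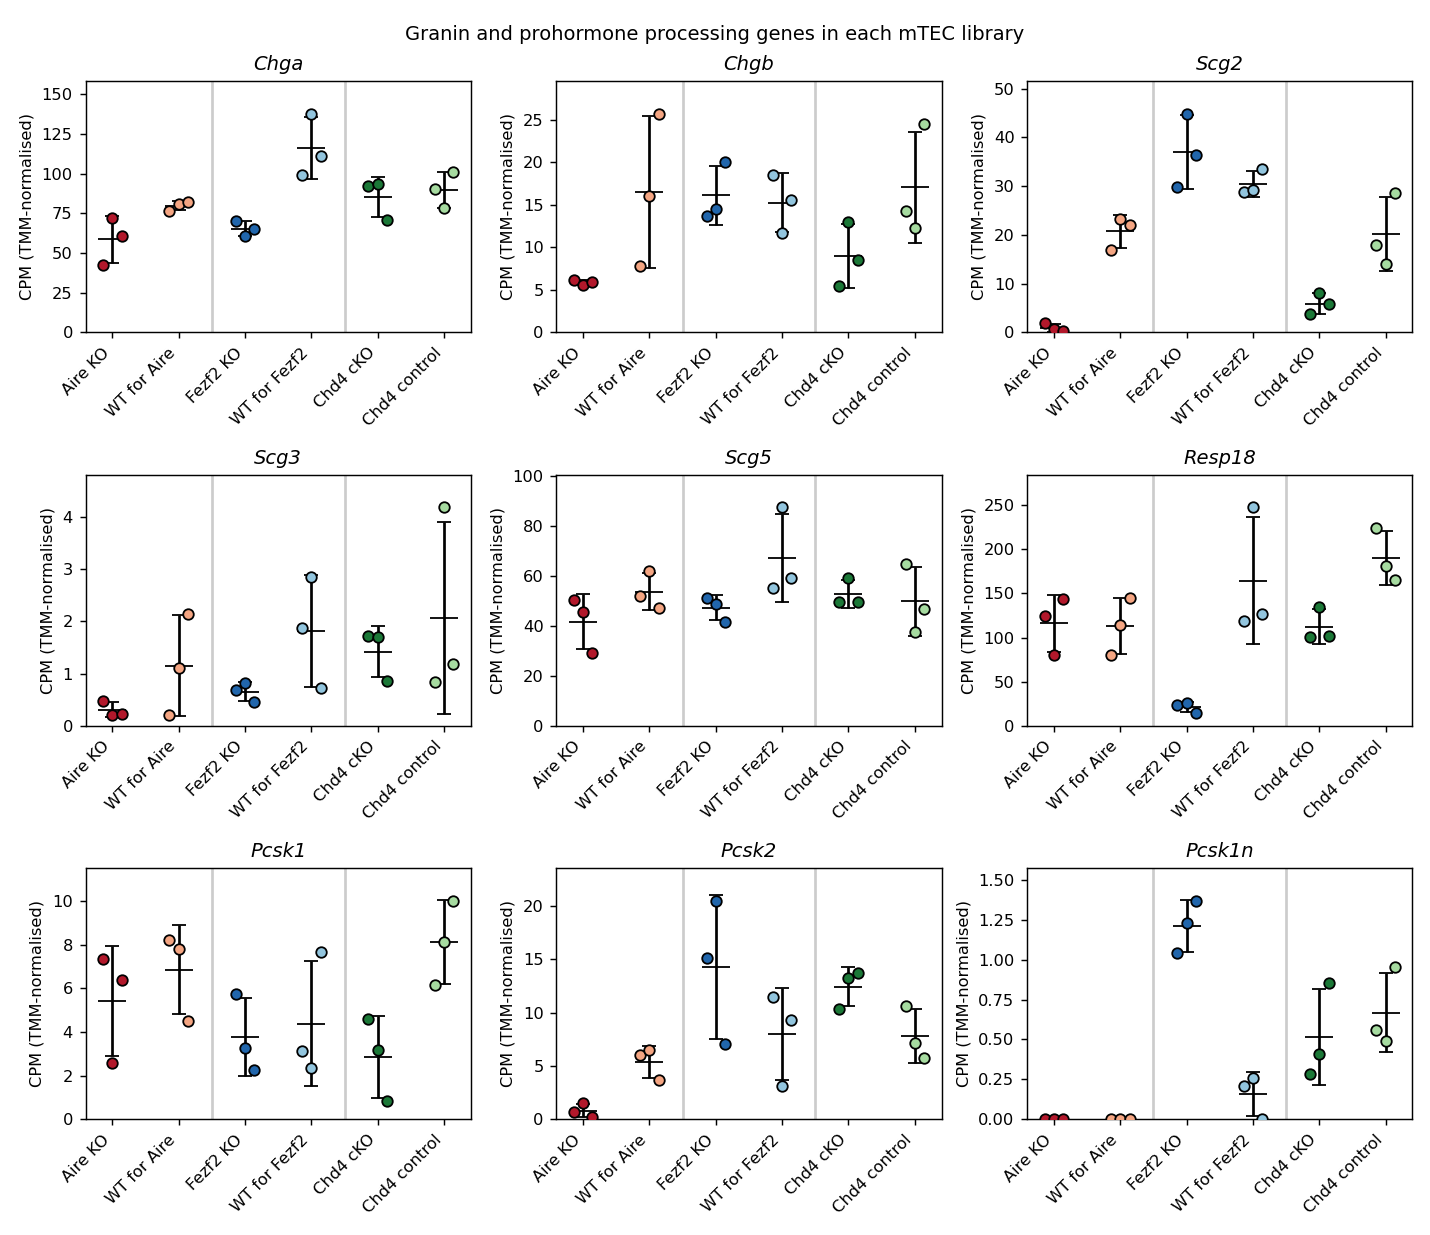
TMM-normalised CPM of the 9 genes in each of the 18 libraries (points), with group mean and SD (bars, n = 3) and each knockout left of its control. Scg2 and Pcsk2 are near 0 in Aire KO, Resp18 is low in Fezf2 KO, and Scg2, Resp18 and Pcsk1 are lower in Chd4 cKO than in the Chd4 control.

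In Aire KO mTECs the granin Scg2 nearly disappeared. Secretogranin II, its product, is a granin that is cut into secretoneurin. Scg2 had 1.90, 0.641 and 0.236 CPM in Aire KO libraries A to C, against 16.8, 23.2 and 22.1 CPM in the WT for Aire. In reads this is 8, 3 and 1 in Aire KO, against 84, 104 and 103 in the WT. The groups were far apart and did not overlap. Scg2 was 22.0-fold lower in Aire KO (log2 fold change -4.46, SE 0.47, edgeR adjusted p = 3.78e-05).

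Pcsk2, the convertase PC2 that cuts proglucagon and proinsulin among others, fell with it. It had 0.712, 1.5 and 0.236 CPM in Aire KO libraries, against 6.01, 6.47 and 3.64 CPM in the WT for Aire. Every Aire KO library lay below every WT library, and the fold change was -2.66 on the log2 scale (SE 0.62, edgeR adjusted p = 0.0102). No source used here says whether counting used strand, and the antisense genes Pcsk2os1 and Pcsk2os2, which overlap Pcsk2 on the other strand, had 26 and 18 exon reads over all 12 Aire and Fezf2 libraries; reads of the strands cannot be told apart.

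Chgb, which encodes chromogranin B, had 6.17, 5.55 and 5.89 CPM in Aire KO, against 7.82, 16.0 and 25.7 CPM in the WT for Aire. The Aire KO libraries were close together and all below the widely spread WT libraries (log2 fold change -1.49, SE 0.40, edgeR adjusted p = 0.0213). This call did not hold when WT for Aire B (adjusted p = 0.0544), WT for Aire C (0.143) or Aire KO B (0.0784) was left out, or with limma-voom and quality weights (0.0897).

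Chga, Scg5, Pcsk1 and Resp18 did not pass the threshold in Aire KO. Chga had 42.7, 72.2 and 60.5 CPM in Aire KO and 76.6, 80.9 and 81.9 CPM in the WT, without overlap (log2 fold change -0.45, SE 0.17, edgeR adjusted p = 0.0976), and passed without Aire KO B (0.043) and without the filter on low counts (0.0367). Scg5, the PC2 chaperone, averaged 41.7 ± 11.1 CPM in Aire KO and 53.8 ± 7.46 CPM in the WT (SD, n = 3 each; edgeR adjusted p = 0.252). Pcsk1, the convertase PC1/3 that makes the first cuts in proinsulin and POMC, averaged 5.43 ± 2.53 and 6.84 ± 2.04 CPM in Aire KO and WT (edgeR adjusted p = 0.688). The groups of Scg5 and Pcsk1 overlapped.

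Resp18, the highest of the 9 genes, overlapped throughout. It had 124.6, 80.5 and 143.2 CPM in Aire KO, against 80.6, 113.7 and 145.1 CPM in the WT for Aire (log2 fold change 0.03, SE 0.22, edgeR adjusted p = 0.947). Scg3, a granin that binds chromogranin A and cholesterol-rich granule membrane, had 4 reads in Aire KO and 16 in the WT, too few to be tested; the ratio per exon read was 0.269 (exact 95% interval 0.0655 to 0.834, counting error only). Pcsk1n had 0 reads in all 6 libraries.

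In Fezf2 KO mTECs Resp18 and Chga fell, and Resp18 changed more. Resp18 had 23.8, 25.6 and 14.8 CPM in Fezf2 KO libraries, against 118.6, 247.6 and 127.1 CPM in the WT for Fezf2. Each knockout library was below every WT library, and WT for Fezf2 B stood above the other WT libraries. Resp18 fell by 2.94 on the log2 scale (SE 0.34, edgeR adjusted p = 0.00167), and by 2.51 without WT for Fezf2 B (adjusted p = 6.75e-06). In Fezf2 KO it was no longer the highest of the 9 genes per kilobase: it stood at 20.8 ± 5.59 CPM per kb, below Chga at 34.7 ± 2.57 and Scg5 at 30.2 ± 3.19.

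Chga had 70.4, 60.8 and 64.8 CPM in Fezf2 KO, against 99.4, 137.6 and 111.3 CPM in the WT for Fezf2. The groups did not overlap (log2 fold change -0.83, SE 0.20, edgeR adjusted p = 0.0428). The call did not hold when WT for Fezf2 A (adjusted p = 0.0613) or C (0.0912), or Fezf2 KO A (0.157), B (0.23) or C (0.174), was left out, and held without WT for Fezf2 B (0.00406). Summed neuroendocrine-like markers, 7 genes with none at 0 in all libraries, were 198.5 to 215.9 CPM in Fezf2 KO and 271.9 to 293.3 CPM in the WT, and the 9 thymocyte markers summed to 173.5 to 209.8 CPM in Fezf2 KO and 330.5 to 620.5 CPM in the WT. The part of either in the Chga and Resp18 results was not tested.

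Scg2, which was almost lost in Aire KO, had 29.7, 44.8 and 36.3 CPM in Fezf2 KO, against 28.8, 29.1 and 33.5 CPM in the WT for Fezf2 (log2 fold change 0.28, SE 0.23, edgeR adjusted p = 0.555). Pcsk2 had 15.1, 20.5 and 7.07 CPM in Fezf2 KO and 11.5, 3.12 and 9.33 CPM in the WT (0.82, SE 0.50, edgeR adjusted p = 0.411). Both genes' groups overlapped. Chgb averaged 16.1 ± 3.46 CPM in Fezf2 KO and 15.3 ± 3.43 CPM in the WT, Pcsk1 3.76 ± 1.78 and 4.37 ± 2.87 CPM, and Scg5 47.3 ± 5.0 and 67.3 ± 17.7 CPM (SD, n = 3 each), with edgeR adjusted p of 0.926, 0.883 and 0.267.

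Pcsk1n, whose product proSAAS inhibits PC1/3, had 6 reads in each Fezf2 KO library, against 1, 1 and 0 in the WT for Fezf2. It did not pass the filter and was not tested. The ratio per exon read was 7.68 (exact 95% interval 1.84 to 68.3, counting error only). Eras overlaps Pcsk1n on the other strand and had 5 exon reads over all 12 Aire and Fezf2 libraries. Scg3 had 10 reads in Fezf2 KO and 23 in the WT for Fezf2 (ratio 0.371, exact 95% interval 0.158 to 0.811).

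In Chd4 cKO mTECs Scg2, which fell in Aire KO, and Resp18, which fell in Fezf2 KO, were both lower, as was Pcsk1. Scg2 had 3.87, 8.12 and 5.77 CPM in Chd4 cKO libraries, against 17.9, 14 and 28.6 CPM in the Chd4 control. Resp18 had 100.9, 134.9 and 101.5 CPM in Chd4 cKO, against 224.7, 180.8 and 165.4 CPM in the control. Neither gene's groups overlapped. Scg2 fell by 1.72 on the log2 scale (SE 0.33, edgeR adjusted p = 0.0033) and Resp18 by 0.75 (SE 0.14, edgeR adjusted p = 0.00334).

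Pcsk1 had 4.59, 3.15 and 0.854 CPM in Chd4 cKO, against 6.16, 8.13 and 10.01 CPM in the Chd4 control, again without overlap (log2 fold change -1.44, SE 0.46, edgeR adjusted p = 0.0388). The call was lost without Chd4 cKO B (adjusted p = 0.0905) or C (0.0647), or Chd4 control A (0.0508), B (0.0877) or C (0.113), and held without Chd4 cKO A (0.0291). Chd4 cKO C, the shallowest of its group, held only 4 of the 90 Pcsk1 reads.

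Chgb had 5.45, 13 and 8.54 CPM in Chd4 cKO and 14.3, 12.3 and 24.5 CPM in the control, overlapping through Chd4 cKO B (log2 fold change -0.88, SE 0.34, edgeR adjusted p = 0.0789). It passed without Chd4 cKO B (0.0287) and with DESeq2 (0.042). Pcsk2, which fell in Aire KO, had 10.3, 13.3 and 13.7 CPM in Chd4 cKO and 10.7, 7.14 and 5.72 CPM in the control (0.67, SE 0.27, edgeR adjusted p = 0.0883), and passed as higher without Chd4 control A (0.0359). Chga averaged 85.4 ± 12.6 CPM in Chd4 cKO and 89.8 ± 11.4 CPM in the control, and Scg5 52.9 ± 5.63 and 49.9 ± 13.9 CPM, with overlapping groups (edgeR adjusted p = 0.739 and 0.726). Scg3 had 45 reads in Chd4 cKO and 25 in the control (ratio per exon read 0.74, exact 95% interval 0.444 to 1.26), and Pcsk1n 13 and 8 (0.668, interval 0.257 to 1.86).

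**Figure D3:**
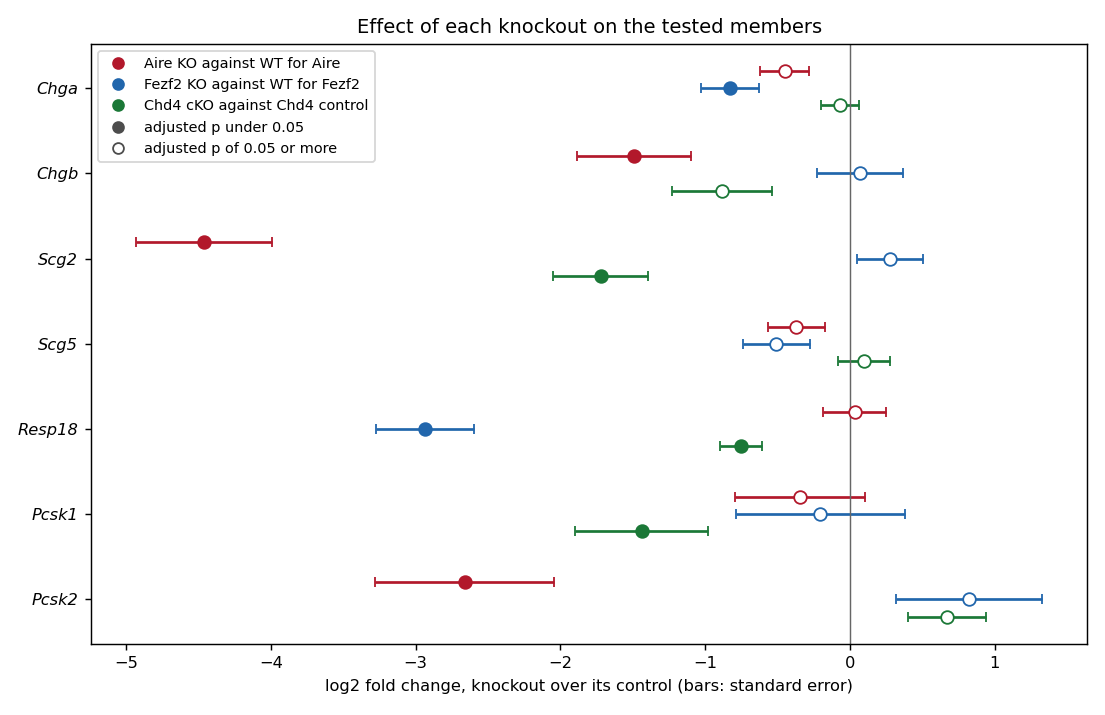
Log2 fold change of each knockout over its control (points) with standard error (bars) for the 7 tested genes; filled points have an adjusted p under 0.05. Scg2 and Pcsk2 are lowest in Aire KO (-4.46 and -2.66) and Resp18 in Fezf2 KO (-2.94), while Scg2, Pcsk1 and Resp18 in Chd4 cKO lie between -0.75 and -1.72.

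Whether one knockout moved a gene more than another was tested as a difference of effects, each knockout being read against its own control. Between Fezf2 KO and Aire KO, 3 of the 7 genes tested differed, against 12.6% of 16532 genes. The difference of log2 fold changes was 4.71 for Scg2 (SE 0.50, edgeR adjusted p = 1.60e-05), -2.99 for Resp18 (SE 0.44, edgeR adjusted p = 2.61e-04) and 3.46 for Pcsk2 (SE 0.83, edgeR adjusted p = 0.0108). Scg2 and Pcsk2 thus fell in Aire KO, against values of 0.28 and 0.82 in Fezf2 KO, and Resp18 fell in Fezf2 KO, against 0.03 in Aire KO. Chgb differed by 1.53 (SE 0.51) and missed the threshold (edgeR adjusted p = 0.0616), though it passed with DESeq2 (0.0332), without the filter (0.0181) and without WT for Aire A (0.0136).

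Between Chd4 cKO and Aire KO, 2 of 8 genes tested differed, against 16.5% of 16169 genes. Scg2 differed by 2.76 (SE 0.58, edgeR adjusted p = 0.00232) and Pcsk2 by 3.35 (SE 0.75, edgeR adjusted p = 0.00392), Scg2 falling further in Aire KO and Pcsk2 falling there while its value in Chd4 cKO was 0.67. Resp18 differed by -0.77 (SE 0.39, edgeR adjusted p = 0.197). Between Chd4 cKO and Fezf2 KO, 3 of 8 genes differed, against 14.9% of genes. Resp18 differed by 2.22 (SE 0.40, edgeR adjusted p = 7.68e-04), its fall being larger in Fezf2 KO, and Scg2 by -1.96 (SE 0.44, edgeR adjusted p = 0.00486), its fall being in Chd4 cKO. Chga differed by 0.80 (SE 0.25, edgeR adjusted p = 0.0356), which did not hold in 8 of the 15 alternatives, each of them leaving out 1 library. These contrasts share knockout and control libraries with each other and with the single comparisons. The Chd4 libraries also differ from the others in strain, in count table and in the dated run name that the count columns carry. Each difference here is between effects measured within a table.

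The authors' deposited table gives q-values under 0.05 to the same genes: 3 members in the Aire comparison, 2 in the Fezf2 comparison and 3 in the Chd4 comparison. It summarises the same libraries, so it is no separate evidence. The share of all genes with q under 0.05 in it was not counted. Its q-values in the Aire comparison were 1.34e-17 for Scg2, 0.00721 for Chgb and 0.0155 for Pcsk2. In the Fezf2 comparison the authors' deposited table has 3.69e-15 for Resp18 and 0.00658 for Chga. In the Chd4 comparison the authors' deposited table has 1.77e-05 for Scg2, 2.25e-05 for Resp18 and 0.0202 for Pcsk1.

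Other genes of the same pathway were followed with lists. Their counts stand beside a share over all genes tested of 9.37% lower and 5.73% higher in Aire KO, 2.40% lower and 2.48% higher in Fezf2 KO, and 14.3% lower and 14.3% higher in Chd4 cKO. Of 15 other granin and processing genes, 13 were tested in Aire KO: 4 fell and 0 rose, with a median log2 fold change of -0.59 beside 0.00 for all genes. Vgf, an extended granin that yields neuropeptides, averaged 20.6 ± 6.19 CPM in Aire KO and 38.2 ± 3.72 CPM in the WT (log2 fold change -0.90, SE 0.22, edgeR adjusted p = 0.0135). Furin, the ubiquitous convertase of the secretory pathway, averaged 36.2 ± 4.08 and 54.4 ± 3.99 CPM in Aire KO and WT (-0.59, SE 0.15, edgeR adjusted p = 0.0181). The carboxypeptidase Cpz and the glutaminyl cyclase Qpct also fell in Aire KO, by 4.57 (SE 0.83, edgeR adjusted p = 0.00203) and 2.49 (SE 0.63, edgeR adjusted p = 0.0161) on the log2 scale.

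In Fezf2 KO edgeR called 0 of the 13 tested genes of that list and DESeq2 also 0. At an unadjusted p under 0.05 there was 1, beside 19.3% of all genes tested. The smallest adjusted p was that of the convertase Pcsk5 (0.199), with 9.15 ± 2.98 CPM in Fezf2 KO and 18.8 ± 8.44 CPM in the WT. In Chd4 cKO 5 of 14 fell and 2 rose (median -0.21), where the share over all genes was 14.3% in either direction. Vgf averaged 10.8 ± 3.44 CPM in Chd4 cKO and 35.2 ± 4.27 CPM in the control (log2 fold change -1.72, SE 0.23, edgeR adjusted p = 4.22e-04), so Vgf fell in both Aire KO and Chd4 cKO as Scg2 did. The carboxypeptidases Cpm and Cpz fell by 1.17 (SE 0.14, edgeR adjusted p = 2.36e-04) and 0.95 (SE 0.24, edgeR adjusted p = 0.0129), and the convertase Pcsk6 rose by 1.35 (SE 0.38, edgeR adjusted p = 0.0225).

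Of 30 genes of dense-core vesicle machinery, 24 were tested in Aire KO, where 4 fell and 1 rose (median -0.16). Slc18a2, the vesicular monoamine transporter VMAT2, averaged 1.59 ± 0.37 CPM in Aire KO and 15.4 ± 4.83 CPM in the WT (log2 fold change -3.26, SE 0.41, edgeR adjusted p = 1.41e-04). Its relative Slc18a1 (VMAT1) averaged 39.8 ± 7.92 CPM in Aire KO and 66.9 ± 20.4 CPM in the WT (edgeR adjusted p = 0.0286). Syt4, a synaptotagmin of dense-core vesicles, had 0 reads in Aire KO and 47 in the WT, at least 14.6-fold lower taking 3 reads over the group, and Rab3b fell by 2.35 (SE 0.57, edgeR adjusted p = 0.0131). In Fezf2 KO 0 of 25 fell and 1 rose: Rab27b, a small GTPase of vesicle docking, averaged 59.1 ± 10.6 CPM in Fezf2 KO and 20.1 ± 7.11 CPM in the WT (1.54, SE 0.29, edgeR adjusted p = 0.0161). In Chd4 cKO 7 of 26 fell and 3 rose, beside 14.3% of all genes in either direction, and the list's median was -0.0045. Those called lower numbered 4 without the filter on low counts and 6 with DESeq2 or with limma-voom. The genes that changed most with the filter were Syt4 (-1.77, edgeR adjusted p = 0.0161), Slc18a2 (-1.77, 2.21e-04), Svop (-1.28, 0.0495) and Snap25 (-1.20, 0.0483).

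Peptide precursors that these proteins pack and cut were mostly lower in Aire KO. Of 40 precursor genes 32 were tested, 23 fell and 1 rose, with a median log2 fold change of -3.42, which was the same with genes at 0 set to their bound. Ppy, Sst, Avp and Oxt, which encode pancreatic polypeptide, somatostatin, vasopressin and oxytocin, had 0 reads in Aire KO and 502, 242, 146 and 134 in the WT. They were at least 155.5-fold, 75.0-fold, 45.2-fold and 41.5-fold lower. In Fezf2 KO 4 of 35 fell and 1 rose (median -0.45, beside -0.03 for all genes). Ins2, Nppa and Grp fell there by 1.84 (SE 0.32, edgeR adjusted p = 0.0119), 1.54 (SE 0.38, 0.0475) and 1.37 (SE 0.28, 0.0241), and Nucb2 rose by 1.13 (SE 0.25, 0.0314). In Chd4 cKO 18 of 35 fell and 1 rose (median -0.70), among them Adcyap1 (-2.59, SE 0.28, edgeR adjusted p = 1.08e-04), Vip (-2.02, SE 0.27, 4.63e-04), Pnoc (-1.95, SE 0.51, 0.0165) and Sst (-1.92, SE 0.21, 1.29e-04).

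**Figure D4:**
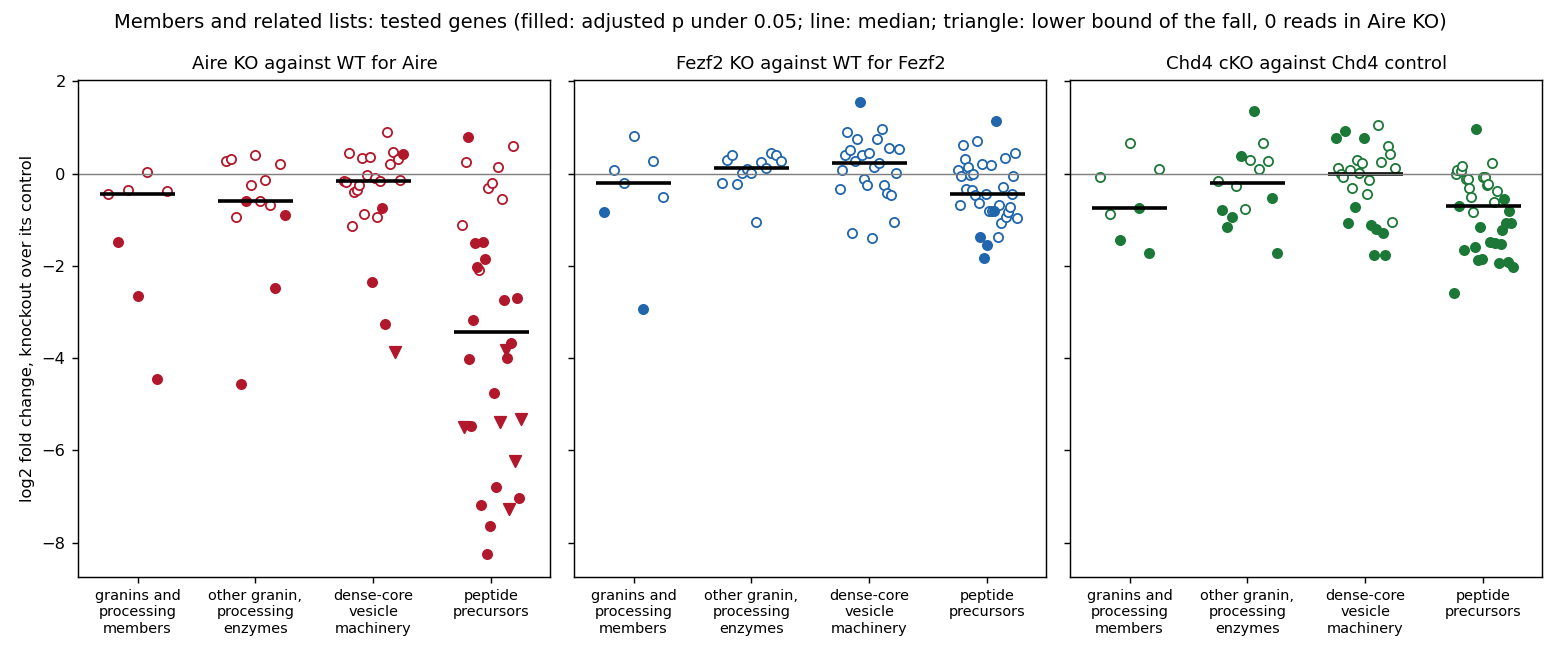
Log2 fold changes (y axis) of the tested genes of the 9 granin and processing genes and of related lists, for Aire KO, Fezf2 KO and Chd4 cKO against their controls; filled points passed an adjusted p of 0.05, lines are medians and triangles are lower bounds for genes with 0 reads in Aire KO. Peptide precursors have a median of -3.42 in Aire KO, -0.45 in Fezf2 KO and -0.70 in Chd4 cKO.

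Of 15 transcription factors of neuroendocrine cells 9 were tested in Aire KO, where edgeR and DESeq2 called 0. At an unadjusted p under 0.05, 1 was lower and 1 higher, beside 27.7% of all genes in either direction. Insm1 averaged 159.0 ± 32.6 CPM in Aire KO and 123.1 ± 1.43 CPM in the WT (edgeR adjusted p = 0.0987). In Fezf2 KO Pax6 rose, to 8.74 ± 1.47 CPM against 1.36 ± 0.50 CPM in the WT (log2 fold change 2.68, SE 0.48, edgeR adjusted p = 0.0125), 1 of 11 tested. In Chd4 cKO 5 of 10 rose and 1 fell: Pax6 (1.70, SE 0.41, edgeR adjusted p = 0.0105), Neurog3 (1.62, SE 0.40, 0.0121) and Prox1 (0.97, SE 0.25, 0.0162) were among those that rose, and St18 fell (-1.58, SE 0.35, 0.00694). Of the 7 neuroendocrine-like markers 6 were tested in Chd4 cKO, where 2 rose and 1 fell, with a median of -0.17. Uchl1 and Syp rose by 2.04 (SE 0.23, edgeR adjusted p = 1.49e-04) and 1.58 (SE 0.19, 2.27e-04), and Snap25 fell by 1.20 (SE 0.41, 0.0483). Without the filter on low counts, and with limma-voom, 0 of these markers were called lower.

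Markers of other cells moved in these libraries too. In Aire KO 2 of the 3 myeloid markers tested fell, Adgre1 (-4.89 on the log2 scale) and Csf1r (-2.16), while the list summed to 1013 to 1644 CPM in Aire KO and 933.4 to 1179 CPM in the WT. Lyz2, not called in Aire KO, made up most of that sum, averaging 1218 CPM in Aire KO and 995.2 CPM in the WT. Of 3 fibroblast markers tested, 2 fell, Col1a1 (-2.95) among them, and Dcn rose (1.43), and of 2 endothelial markers Pecam1 rose (1.40). Of the 8 mTEC markers Krt5 (-0.69) and Epcam (-0.36) fell there, and Cd80 (0.44) and H2-Aa (0.34) rose. In Fezf2 KO 5 of 9 thymocyte markers fell, among them Cd8b1 (-2.25), Cd8a (-1.64), Dntt (-1.60) and Lck (-1.32). Of 4 cortical epithelial markers Ctsl alone was called there (1.64), Ly75, Psmb11 and Prss16 having -0.96, -0.28 and 0.41, and of the 8 mTEC markers Krt5 alone (1.51). In Chd4 cKO 2 of 4 tuft-like markers fell, Trpm5 (-1.10) and Avil (-1.08), 2 of 3 myeloid markers fell, Lyz2 (-0.92) among them, and 1 of 4 B cell markers, Cd79b, rose (1.09). Of the 4 cortical epithelial markers Ctsl and Ly75 rose there, and of the 8 mTEC markers 2 rose and 1 fell. Each marker given as risen, fallen or called passed an edgeR adjusted p of 0.05, and their part in the granin results was not tested.

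Across the 18 libraries, Scg2 and Chgb ran most closely together among the members, with a Pearson r of 0.819 between log2(CPM + 1) values, followed by Scg2 with Pcsk2 at 0.659; Scg2 and Resp18 had r = -0.28. Among 16449 genes, those most like Scg2 were Prg4 (r = 0.955) and Pla2g1b (0.954), and those most like Resp18 were Dnajc22 (0.952) and Derl3 (0.934). Pcsk2 was most like Ido1 (0.927) and Akp3 (0.924), Chga most like Krt10 (0.875) and Acot7 (0.847), and Chgb most like Igfl3 and Cd55 (both 0.822). Scg3 was most like Zscan5b (0.868) and Prss57 (0.827), Scg5 most like Pop7 (0.799) and Ecscr (0.796), and Pcsk1 most like Cav2 (0.792) and Grk1 (0.77). These libraries share genotype groups and 2 annotations, and the values are descriptions.

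In GRCm38 (GENCODE M21) the 9 genes are protein-coding. Scg2 spans chr1:79434669-79440120 and Resp18 chr1:75272199-75278415, both on the minus strand of chromosome 1. Chgb (chr2:132781278-132795079, plus), Scg5 (chr2:113776362-113829121, minus) and Pcsk2 (chr2:143546156-143816285, plus) share chromosome 2. Chga lies at chr12:102554969-102565028, Pcsk1 at chr13:75089826-75134861 and Pcsk1n at chrX:7919822-7924410, all on the plus strand, and Scg3 at chr9:75643189-75684056 on the minus strand. Counts are over annotated exons, UTRs included.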

How the data were processed

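mTEC RNA was purified on a Maxwell 16 instrument and amplified with the SMART-seq v4 kit, per the labels' protocols. The authors deposited 3 tables of counts, per the file headers total exon reads of each gene and library, with exon lengths. A summary table the authors deposited gives mean RPKM per group on the log2 scale, with p-values and q-values of their comparisons. The submitters' processing notes name DESeq2 (no version), mm10 and GRCm38; no source used here names an aligner or says how strand was handled. Columns name a group and barcode, so libraries were mapped to groups only, A to C following barcode order. Of the per-library columns, 216 were not used, and 25 symbols turned into dates were restored from gene IDs.

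Counts were tested with edgeR 4.0.16 (R 4.3.3; TMM, filterByExpr, quasi-likelihood F test, Benjamini-Hochberg adjustment over all genes tested), called at an adjusted p under 0.05. A comparison used its 6 libraries, and differences of effects 12 or 18. SE is the log2 fold change over the square root of F. The biological coefficient of variation was 0.183 (Aire), 0.279 (Fezf2) and 0.149 (Chd4). Alternatives were RLE and upper-quartile normalization, no filter, DESeq2 1.42.0, limma-voom (limma 3.58.1) with quality weights, and leaving out each library. The scripts were tested on simulated data. The genes and lists were chosen with earlier results of these data known. Named list genes are up to 4 per list and comparison that passed the threshold and changed most, or, where none passed, the gene with the smallest adjusted p. Intervals are exact binomial at 95% and, like the floor of 3 reads, cover counting error only. Genes most alike are by Pearson r among genes with a mean of at least 1 CPM.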

Additional observations from a re-analysis of the deposited data

Results flagged for a closer look

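Effects of the knockouts on the same gene were compared by a test of the difference itself in edgeR. Between Fezf2 KO and Aire KO 3 of 7 members tested differed, beside 12.6% of all genes. Between Chd4 cKO and Aire KO 2 of 8 did (16.5%), and between Chd4 cKO and Fezf2 KO 3 of 8 (14.9%). The Fezf2 KO effect minus the Aire KO effect was 4.71 on the log2 scale for Scg2, -2.99 for Resp18 and 3.46 for Pcsk2. The Chd4 cKO effect minus the Aire KO effect was 2.76 for Scg2 and 3.35 for Pcsk2. The Chd4 cKO effect minus the Fezf2 KO effect was 0.80 for Chga, -1.96 for Scg2 and 2.22 for Resp18, and that of Chga did not hold in 8 of 15 alternatives. The test values stand with the comparisons of effects. Thymocyte markers, the strain, the count table and the run name in the count columns differ between the groups behind these contrasts, and their part was not tested. No library was tested for standing apart within a group, since groups held 3 libraries.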

How the results depend on the processing

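Scg2 and Pcsk2 in Aire KO, Resp18 in Fezf2 KO, and Scg2 and Resp18 in Chd4 cKO kept their call and direction in all 11 alternatives run for each comparison (log2 fold change -5.44 to -4.02, -3.43 to -2.24, -3.12 to -2.50, -2.09 to -1.37 and -0.90 to -0.60). Calls of members lost elsewhere stand with their genes. For the genes of the other lists only some such losses are given. Where results moved, the cause was not tested beyond what left-out libraries show. Without the filter on low counts, 2257 genes were lower in Aire KO (1401 with it). In Fezf2 KO 389 genes were higher and 376 lower; 663 and 724 were without the filter, 681 and 717 with DESeq2, 1193 and 1307 with limma-voom, and leaving out a library gave 102 to 1053 and 67 to 981, lowest without Fezf2 KO B and highest without WT for Fezf2 B. Members lower in Fezf2 KO numbered 1 to 2, and members higher in Chd4 cKO 0 to 1, the 1 being Pcsk2 without Chd4 control A. Between WT for Fezf2 and WT for Aire 20 genes were called, 455 without the filter, 433 with DESeq2 and 0 to 636 with a library left out, 636 without WT for Fezf2 B. These uncalled log2 fold changes turned sign. Resp18 in Aire KO was -0.018 with upper-quartile scaling, -0.031 with limma-voom and -0.16 to 0.26 with a library left out, and Chgb in Fezf2 KO was -0.14 with limma-voom and -0.11 to 0.24. With a library left out, Pcsk1 spanned -0.62 to 0.0086 in Aire KO and -0.65 to 0.47 in Fezf2 KO, Cd8b1 -1.14 to 0.12 in Aire KO, Chga -0.15 to 0.050 and Scg5 -0.059 to 0.34 in Chd4 cKO, and Chgb -0.51 to 0.30 between the WT groups. The Fezf2 KO minus Aire KO difference spanned -0.36 to 0.094 for Scg5 and -0.33 to 0.82 for Pcsk1, and Chd4 cKO minus Fezf2 KO -0.47 to 0.24 for Pcsk2. Counting with unique exon reads was not run, since count columns name only a group and 1 measure per library was kept. No paired analysis was possible because the count columns carry barcodes and no replicate number. Depth limits Scg3 and Pcsk1n most: neither passed the filter in a comparison of a knockout with its control, and Scg3 was tested only for Chd4 cKO minus Aire KO (1.35, edgeR adjusted p = 0.511) and minus Fezf2 KO (0.96, 0.607).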
